A study of Mus musculus with 2 samples.

Results

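The microRNA machinery of the mouse retina was followed through 10 genes of the 32285 in the count files. They were chosen by name, with earlier results of these data known. They are Drosha and Dgcr8, Dicer1, the Argonautes Ago1, Ago2, Ago3 and Ago4, and the GW182 genes Tnrc6a, Tnrc6b and Tnrc6c, and all 10 had UMIs in both libraries. A UMI is a molecular tag that counts 1 captured RNA molecule.

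Primary microRNA transcripts are cut in the nucleus by the microprocessor, in which Drosha is the RNase and Dgcr8 binds the hairpin. The precursor is exported and cut by Dicer1, and 1 strand of the duplex is loaded onto an Argonaute protein. GW182 proteins, encoded by the Tnrc6 genes, bind Argonaute and recruit the deadenylases that shorten the poly(A) tail of the target mRNA. Together, Argonaute and the loaded strand form the core of the RNA-induced silencing complex.

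The study exposed mice to bright light to start rod degeneration and compared their retinae with those of mice that were not exposed. The control library came from mice kept in complete darkness for 18 h. The light damage library came from mice kept equally in darkness, then exposed to 5000 lux for 30 min, with 6 h of recovery under dim light before collection. All mice, labelled WT, carried floxed Tgfbr2 alleles without Cre, were of mixed Balb-C/CD1 background, were homozygous for a leucine variant of RPE65 and were 6 to 9 weeks old. Each library pooled the retinae of 3 to 5 animals, so each condition is 1 library with no replicate. Differences between mice, sexes, dissections or sequencing runs cannot be told apart from the light exposure. Xist gave 4748 UMIs in the control droplets and 3 in the light damage droplets, so the sexes of the 2 pools differed as well. No p-value is given for this reason, and every interval below is an exact 95% interval that covers counting error only.

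The count files held 30605284 control and 54413601 light damage UMIs, of which 18.7% and 32.7% were unspliced. After filtering, 3669 and 5593 droplets remained, and 7 barcodes were kept in both libraries. Names such as rods or RPE (the retinal pigment epithelium) stand for droplets with UMIs of that class's marker genes, that is, rod-like or RPE-like droplets. A gene's level is its spliced and ambiguous UMIs per 1000000 such UMIs of the group (CPM). Reads were counted near the 3′ end, so levels are compared between groups and not between genes. Rods were split by the unspliced share of their UMIs into cytoplasm-rich rods (under 20%) and nucleus-rich rods (at least 30%). There were 2407 control and 1897 light damage cytoplasm-rich rods, and 737 and 3140 nucleus-rich rods. RPE droplets numbered 136 and 288, Müller glia 32 and 33, cones 2 and 59, and microglia 5 and 37. Control cones and microglia were too few to compare. All 8 markers of its own list were detected in each of these classes, while the 12 and 17 bipolar and amacrine droplets, grouped together, held 7 and 8 of their 11 markers. Cone droplets of the light damage library held more rod marker UMIs (2.23%) than cone marker UMIs (1.85%), so their levels are not those of cones alone.

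All 10 genes lie on GRCm38. Ago3 (chr4:126331704-126429556), Ago1 (chr4:126435012-126468583) and Ago4 (chr4:126489541-126533472) stand side by side on the minus strand. Ago2 (chr15:73095844-73184935, minus strand), Drosha (chr15:12824815-12935291, plus strand) and Tnrc6b (chr15:80711313-80941085, plus strand) share chromosome 15. The others are Dicer1 (chr12:104687742-104751952, minus), Dgcr8 (chr16:18253948-18289246, minus), Tnrc6a (chr7:123123885-123195296, plus) and Tnrc6c (chr11:117654289-117763439, plus). Tnrc6b overlaps the counted gene Gm49512 on the same strand, so UMIs of these 2 genes may be shared and Tnrc6b is uncertain to that extent. Chrac1 overlaps Ago2 and Trmt2a overlaps Dgcr8 on the opposite strand, which the strand filter of the counting keeps apart.

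Dgcr8 and Tnrc6b carry microRNA hairpins in their own exons. The sequences are shown because Dgcr8 had the largest ratio of light damage to control among the 10 genes in both groups of rods. Its mRNA is itself known to be cut by Drosha, and any part of such cutting in that ratio was not tested. In exon 2 of Dgcr8, miR-1306 lies in the coding sequence and miR-3618 in the 5′ UTR, and miR-5113 lies in the 3′ UTR of Tnrc6b, in exon 25. The mature sequences from RefSeq (GRCm38.p6) are written 5′ to 3′, and capitals mark the seed, bases 2 to 8.
mmu-miR-1306-3p: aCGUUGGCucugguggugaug
mmu-miR-1306-5p: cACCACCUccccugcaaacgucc
mmu-miR-3618-3p: cUACAUUAaugaaaagagcaau
mmu-miR-3618-5p: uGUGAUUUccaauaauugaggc
mmu-miR-5113: aCAGAGGAggagagagauccugu

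Of 11 microRNA host transcripts in the files, 8 contain a hairpin of the RefSeq table on their strand. None was listed there for Mir124a-1hg, Mir124-2hg and Mir133a-1hg, which does not show that these hosts lack a microRNA. Both Mir17hg and Mir22hg are read beside the machinery below, and 1 mature arm of each of their hairpins is shown. Among them miR-17-5p and miR-20a-5p share a seed, and so do miR-19a-3p and miR-19b-3p.
mmu-miR-17-5p: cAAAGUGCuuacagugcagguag
mmu-miR-20a-5p: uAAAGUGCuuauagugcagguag
mmu-miR-18a-5p: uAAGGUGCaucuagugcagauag
mmu-miR-19a-3p: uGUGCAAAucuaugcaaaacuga
mmu-miR-19b-3p: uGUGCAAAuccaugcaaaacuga
mmu-miR-92a-3p: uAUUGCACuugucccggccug
mmu-miR-22-3p: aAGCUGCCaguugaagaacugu

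In RPE droplets, Ago2, the Argonaute that can itself slice a fully paired target, was the member with the largest difference between the libraries. It had 9 UMIs (13.8 CPM, 6.31 to 26.2) in 136 control droplets and 179 UMIs (76.5 CPM, 65.7 to 88.6) in 288 light damage droplets, a 5.55-fold higher level (log2 ratio 2.47, 1.51 to 3.62). The 2 intervals of the level did not overlap, and the ratio lay above that of 96.6% of genes tested. The UMIs were spread over many droplets. Ago2 was found in 8 of 136 control droplets and 91 of 288 light damage droplets, with at most 2 and 8 UMIs in 1 droplet. Light damage RPE droplets were deeper, with a median of 6497 against 3196 UMIs. After thinning every droplet to 1464 UMIs, 2.94% (0.807 to 7.36) and 11.1% (7.73 to 15.3) held an Ago2 UMI, and free RNA alone would put the gene in 5.66% and 6.24% of droplets of that size. Among droplets of 2000 to 6000 UMIs in both libraries the log2 ratio of Ago2 was 2.05 (0.90 to 3.44).

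The RPE droplets of the 2 libraries did not fill the same clusters. All 136 control droplets lay in a cluster led by Ttr and Cox8b, which also held 166 light damage droplets. Another 118 light damage droplets lay in a cluster with 0 control droplets, led by Chil1 and Serpina3n, and 4 in a rod cluster. Ago2 stood at 58.9 CPM (46.0 to 74.3) in the 166 light damage droplets of the shared cluster and at 91.7 CPM (74.7 to 111) in the 118 others. Within the shared cluster the log2 ratio of Ago2 was 2.09 (1.09 to 3.28).

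Rod RNA in these droplets was measured through the rod markers, which made up 0.440% of control and 0.286% of light damage UMIs of RPE droplets, against 10.8% and 9.80% in cytoplasm-rich rods. Markers of Müller glia made up 0.123% and 0.154%, against 1.94% and 0.735% in Müller glia droplets. Of these 8 markers, 4 were detected in control and 5 in light damage RPE droplets. The estimated share of free RNA was 4.76% and 3.87%. With the expected free RNA subtracted, the log2 ratio of Ago2 was 2.59. Mir124a-1hg, a host transcript that was abundant in nucleus-rich rods, also had more UMIs in light damage RPE droplets (190 against 11, 81.2 against 16.9 CPM). In light damage nucleus-rich rods Mir124a-1hg stood at 3662 CPM and Ago2 at 181 CPM. Of the Ago2 UMIs in light damage RPE droplets, 1.65% (0.34 to 4.74) were unspliced, against 39.7% (38.0 to 41.4) in light damage nucleus-rich rods. The part of RNA from other cells in the Ago2 difference was not tested.

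Tnrc6a, the GW182 gene, had 33 control and 247 light damage UMIs in RPE droplets (50.6 and 106 CPM, log2 ratio 1.06, 0.53 to 1.63). Among droplets of 2000 to 6000 UMIs it was 0.52 (-0.27 to 1.37). Ago4 had 1 and 19 UMIs, a log2 ratio of 2.41 whose interval of -0.25 to 7.78 held 0. Tnrc6c had 17 and 111 UMIs (26.1 and 47.5 CPM, log2 ratio 0.86, 0.12 to 1.69, and 3.71, 1.09 to 9.07, among droplets of 2000 to 6000 UMIs), and Ago3 12 and 69 UMIs (0.68, -0.21 to 1.70). Drosha went the other way, with 28 and 58 UMIs, 42.9 and 24.8 CPM (log2 ratio -0.79, -1.47 to -0.09). The intervals of Ago1 (0.11), Dicer1 (-0.16) and Tnrc6b (-0.35) all held 0. Dgcr8 had 2 and 11 UMIs and was not read further. Thus 3 of the 9 members with at least 20 UMIs, Ago2, Ago4 and Tnrc6a, were at least 2-fold higher and 0 were as much lower, where 14.3% of all 8849 genes were higher and 6.33% lower. The median log2 ratio was 0.68 for these 9 members and 0.07 for all genes.

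**Figure D1:**
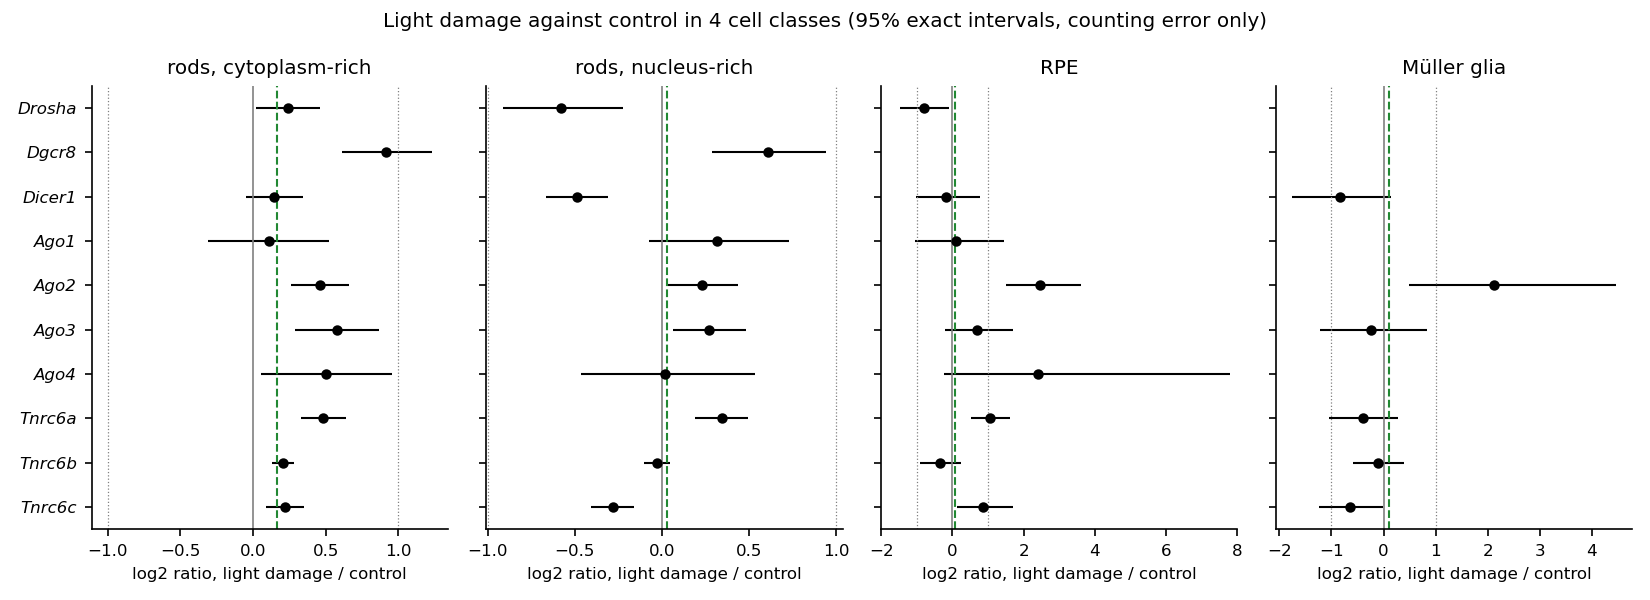
Log2 ratio of light damage to control CPM for each gene (points) with its exact 95% interval (lines) in cytoplasm-rich rods, nucleus-rich rods, RPE and Müller glia. The grey line marks 0, dotted lines a log2 ratio of 1 and -1, and the dashed green line the median of all genes tested. Genes under 20 UMIs in both libraries together are left out. Ago2 lies at 2.47 in RPE and 2.13 in Müller glia, and on the spliced and ambiguous UMIs drawn here no gene of the 10 passes 1 or -1 in either rod group.

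In Müller glia, the radial glia of the retina, Ago2 was the only member tested that passed a 2-fold difference. It had 3 UMIs (29.4 CPM, 6.05 to 85.8) in control and 44 UMIs (129 CPM, 93.5 to 173) in light damage droplets, a log2 ratio of 2.13 (0.49 to 4.46). The control value rests on 3 UMIs in 2 droplets, against 19 of 33 light damage droplets with a UMI. The median depth was 2711 against 20380 UMIs, and too few droplets of matched depth remained to repeat the comparison. After thinning to 1464 UMIs, 2 of 32 control and 0 of 33 light damage droplets held an Ago2 UMI, the latter allowing a share of up to 9.09% by a limit of 3 droplets and of 10.6% by the exact interval, so no order is read from these shares. All 32 control droplets lay in a cluster led by Aqp4 that held 7 light damage droplets with 2 Ago2 UMIs, and the other 26 light damage droplets, with 42 Ago2 UMIs, lay in a cluster with 0 control droplets led by Cp. The marker share of Müller glia was 1.94% in control and 0.735% in light damage droplets, and the rod marker share 1.28% and 0.569%. Whether depth or composition moved Ago2 was not tested beyond these values. The unspliced UMIs of Ago2 numbered 4 and 28 (log2 ratio 1.29, -0.22 to 3.27). None of the other members tested passed a 2-fold difference: Ago3 (-0.24), Dicer1 (-0.84), Tnrc6a (-0.40) and Tnrc6b (-0.11) had intervals that held 0, and Tnrc6c was lower at -0.64 (-1.25 to -0.01), but at 0.02 with unspliced UMIs added. Of 6 members tested, 1 was higher and 0 lower, where 25.5% of 4543 genes were higher and 15.8% lower, so the count of members is no greater than that of genes at large. Dgcr8 had 0 and 11 UMIs.

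In rods, no member passed a 2-fold difference between light damage and control on spliced and ambiguous UMIs. With spliced UMIs alone Ago3 passed it in cytoplasm-rich rods (1.11, 0.11 to 2.16) and Dgcr8 in nucleus-rich rods (1.13, 0.64 to 1.66). Of all 10119 genes tested in cytoplasm-rich rods, 5.05% were at least 2-fold higher and 1.55% lower, and in nucleus-rich rods 9.7% of 12139 genes were higher and 5.89% lower. The nucleus-rich rods of the 2 libraries lay in different clusters. Of 737 control droplets, 538 were in a cluster led by Tsix and Xist, and of 3140 light damage droplets 1744 were in a cluster led by Ccr9 and Mir124a-1hg and 1042 in one led by Jun and Junb. The part of this separation in the differences below was not tested. Smaller differences whose interval left out 0 were found in both directions.

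For the microprocessor, the 2 partners parted in nucleus-rich rods. Dgcr8 stood at 18.3 CPM (144 UMIs) in control and 34.6 CPM (226 UMIs) in light damage cytoplasm-rich rods, the largest ratio among the members there (log2 0.92, 0.61 to 1.23). In nucleus-rich rods Dgcr8 stood at 56.4 and 85.9 CPM (0.61, 0.29 to 0.94), and its unspliced UMIs gave 0.78 (0.51 to 1.07). Drosha stood at 43.4 and 51.3 CPM in cytoplasm-rich rods (0.24, 0.02 to 0.46). In nucleus-rich rods it was lower after light damage, at 56.4 and 37.8 CPM (-0.58, -0.91 to -0.22), while its unspliced UMIs gave 0.27 with an interval that held 0 and all UMIs of the gene summed gave -0.06 (-0.28 to 0.15). Dgcr8 was thus higher in the light damage library in both rod groups, and Drosha in the cytoplasm-rich group alone.

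Dicer1, the RNase that cuts the exported precursor, stood at 56.8 and 62.8 CPM in cytoplasm-rich rods, with an interval that held 0 (0.14, -0.05 to 0.34). In nucleus-rich rods it was lower after light damage, with 206 and 147 CPM (-0.49, -0.66 to -0.31). Its unspliced UMIs there gave -0.14, with an interval from -0.48 to 0.21.

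Among the Argonautes, Ago2 stood at 48.9 CPM (384 UMIs) in control and 67.2 CPM (439 UMIs) in light damage cytoplasm-rich rods, 1.38-fold higher (0.46, 0.26 to 0.66). In nucleus-rich rods it stood at 154 and 181 CPM (0.23, 0.04 to 0.43), with 0.30 (0.08 to 0.53) for unspliced UMIs. Both intervals lay below that of Ago2 in RPE droplets, which began at 1.51. On spliced and ambiguous UMIs the ratio of Ago2 lay above that of 76.6% of genes tested in cytoplasm-rich rods and 63.7% in nucleus-rich rods. Ago3 stood at 23.2 and 34.6 CPM in cytoplasm-rich rods (0.58, 0.29 to 0.87) and at 136 and 164 CPM in nucleus-rich rods (0.27, 0.06 to 0.48). Its unspliced UMIs in nucleus-rich rods were fewer after light damage (-0.30, -0.42 to -0.17), and the sign of the ratio turned to -0.16 when spliced and unspliced UMIs were summed. Ago4 gave 0.50 (0.05 to 0.95) in cytoplasm-rich and 0.02 in nucleus-rich rods. Ago1 gave 0.11 and 0.31, with intervals that held 0.

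Of the GW182 genes, Tnrc6a was higher in both rod groups, at 80.7 and 113 CPM in cytoplasm-rich rods (0.48, 0.33 to 0.64) and 256 and 324 CPM in nucleus-rich rods (0.34, 0.19 to 0.50). Tnrc6b stood at 362 and 417 CPM in cytoplasm-rich rods (0.21, 0.13 to 0.28) and at 1055 and 1035 CPM in nucleus-rich rods (-0.03, -0.10 to 0.05). Tnrc6c stood higher after light damage in cytoplasm-rich rods, at 128 and 149.6 CPM (0.22, 0.09 to 0.35), and lower in nucleus-rich rods, at 414 and 340.3 CPM (-0.28, -0.40 to -0.16). The median gene moved by 0.16 in cytoplasm-rich rods, so that the ratios of Drosha, Tnrc6b and Tnrc6c there were 0.08, 0.04 and 0.06 above it. Less that median, Dicer1 and Ago1 lay below 0 in cytoplasm-rich rods, at -0.02 and -0.06.

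The level of every member except Drosha was higher in nucleus-rich than in cytoplasm-rich rods of both libraries. The 10 genes together stood at 785 CPM in control cytoplasm-rich rods and 2398 CPM in control nucleus-rich rods (log2 ratio 1.61, 1.55 to 1.67), and at 959 and 2390 CPM after light damage (1.32, 1.28 to 1.36). In control rods 9 of 10 members were at least 2-fold higher in nucleus-rich rods and 0 lower, where 41.7% of 10130 genes were higher and 6.66% lower. After light damage 8 of 10 were higher and 0 lower, where 45.1% of 12137 genes were higher and 4.89% lower. The median log2 ratio was 1.64 for members and 0.75 for all genes in control, and 1.31 and 0.86 after light damage. Ago3 had the largest ratio, with 23.2 and 136 CPM in control (2.56, 2.26 to 2.85) and 34.6 and 164 CPM after light damage (2.25, 2.05 to 2.45). Drosha differed from the rest, at 43.4 and 56.4 CPM in control (0.38, 0.02 to 0.72) and 51.3 and 37.8 CPM after light damage (-0.44, -0.65 to -0.23). Ago4 after light damage was the other member under 2-fold (0.90). These counts depend on the scale. With unspliced UMIs included in the total, the ratio of the 10 genes was 0.42 in control and 0.33 after light damage, and Ago3 alone stayed at least 2-fold higher in both libraries. On that scale Drosha was lower in nucleus-rich rods of control (-0.81) as well as light damage (-1.43), and Ago4 was at -0.09 after light damage. Less the median gene, Ago3 and Dicer1 were at least 2-fold higher in control and Ago3 after light damage, and Drosha lay at -0.37 and -1.30. With spliced, ambiguous and unspliced UMIs summed, Drosha turned to 0.15 after light damage, with an interval of -0.02 to 0.33.

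**Figure D2:**
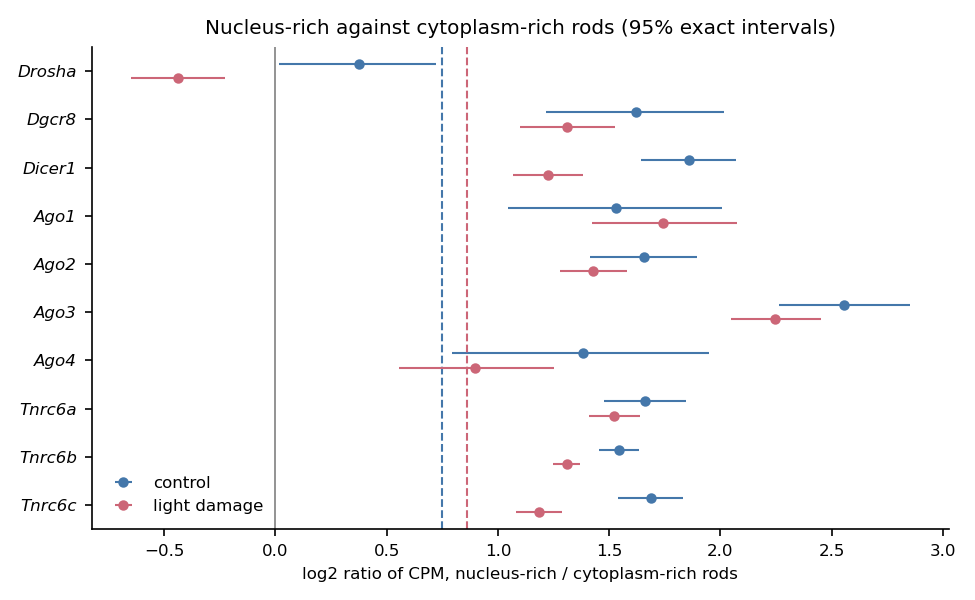
Log2 ratio of CPM in nucleus-rich to cytoplasm-rich rods for each gene (points) with its exact 95% interval (lines), in control (blue) and light damage (red) libraries. Dashed lines mark the median of all genes tested, 0.75 in control and 0.86 in light damage, and Drosha lies below both.

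Levels were also read along the unspliced share of rods in steps of 10 percentage points. The 10 genes together stood at 766 CPM in control rods under 10% unspliced and 3414 CPM in those of at least 70%, and at 954 and 3399 CPM in light damage rods. Dicer1 stood at 56.6 and 268 CPM in control and at 62.5 and 223 CPM in light damage rods. Drosha stood at 42.8 CPM at the low end and 32.1 CPM (8 UMIs) at the high end in control, and at 51.3 and 31.0 CPM after light damage. Drosha was thus the member whose point value was lower at the high end in both libraries, though on 8 and 15 UMIs there. In control the interval of the high end (13.8 to 63.2) held the level of the low end. With rods cut into groups of equal size by unspliced share, Drosha in control stood at 36.9 CPM in the lowest and 49.3 CPM in the highest. After light damage it stood at 39.4 and 34.0 CPM in these groups, with overlapping intervals, so no fall is read in control. Nucleus-rich rods of the 2 libraries differed in their unspliced share and in depth, with medians of 3828 control and 6118 light damage UMIs, so the libraries were also set side by side within each step. Between 30% and 40% unspliced, Dgcr8 had 6 control and 145 light damage UMIs (1.55, 0.39 to 3.02), and between 40% and 50% 11 and 324 UMIs (1.35, 0.49 to 2.36). It gave 0.74 (0.08 to 1.47) from 50% to 60%. Its intervals held 0 from 60% to 70% (0.49, -0.19 to 1.25) and from 70% on (0.25, -0.39 to 0.94). Ago2 was higher after light damage in the 3 steps from 30% to 60% (0.78, 0.50 and 0.53) and not from 60% to 70% (-0.28, -0.65 to 0.10). From 70% on its interval held 0 (0.39, -0.10 to 0.89). Drosha was lower in the steps from 40% to 50% (-0.78, -1.42 to -0.08) and 50% to 60% (-0.97, -1.60 to -0.29). In the other steps from 30% on its intervals held 0. Dicer1 was lower from 40% to 50% (-0.51, -0.89 to -0.10) and from 60% to 70% (-0.64, -0.97 to -0.29), and its intervals held 0 in the other steps from 30% on.

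**Figure D3:**
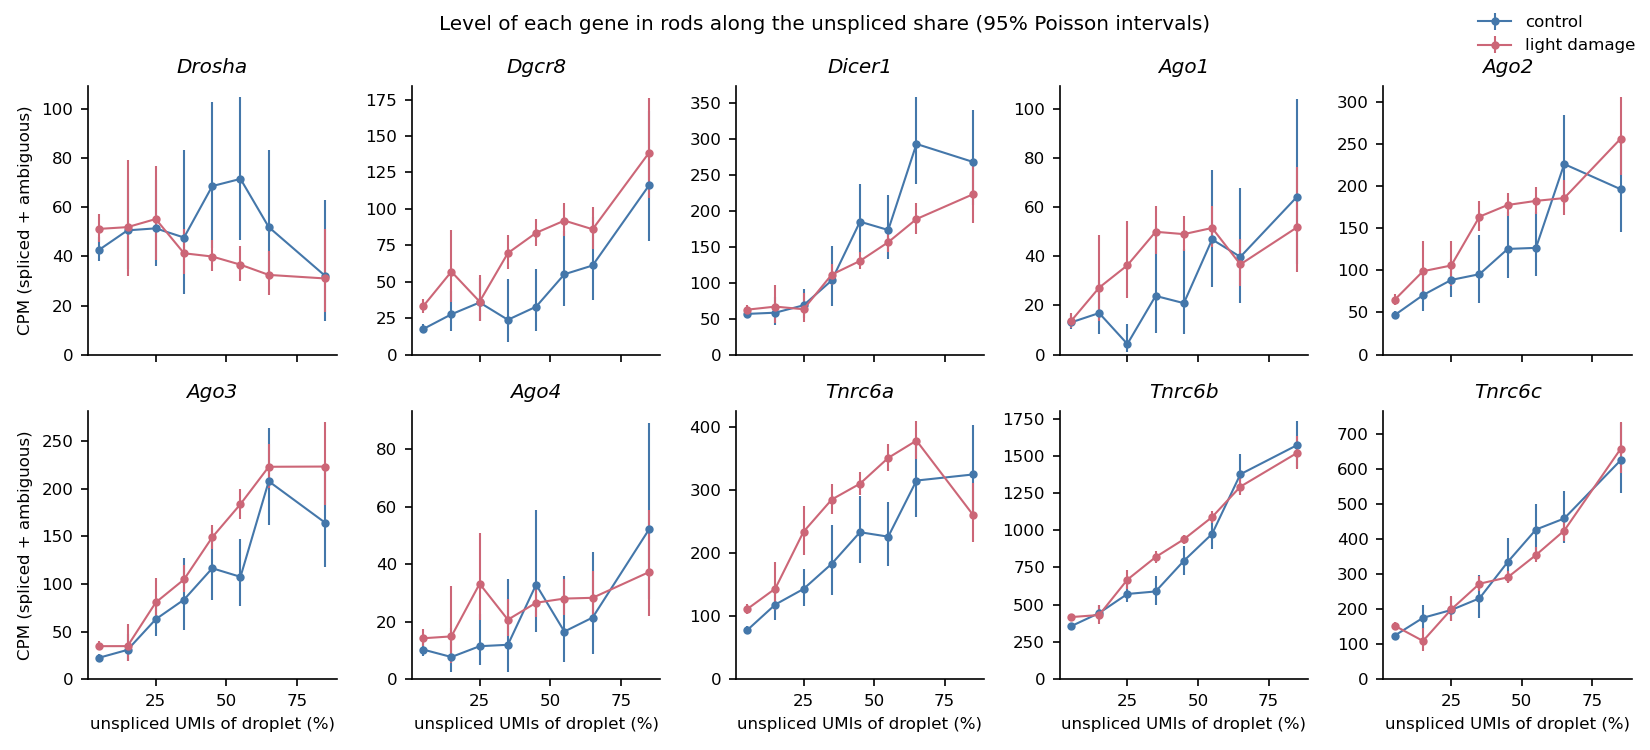
CPM of each gene (vertical axis, from 0) in rods grouped by the unspliced share of the droplet in percent (horizontal axis, middle of each step, the last from 70 to 100%), for control (blue) and light damage (red), with exact 95% Poisson intervals. All genes but Drosha stand higher at the last step than at the first. The light damage point of Dgcr8 lies above the control point in every step, but the interval of their ratio holds 0 from 20% to 30% and from 60% on.

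The unspliced share of each gene's own UMIs was lowest for Dicer1 in nucleus-rich rods. Such shares depend on each gene's priming sites and intron length, so their order between genes only describes the counts. In nucleus-rich rods 21.7% of Dicer1 UMIs were unspliced in both libraries, where the class as a whole had 58.5% in control and 52.7% after light damage. Ago3 had the highest share in control, at 74.6% (71.5 to 77.6), and 61.0% (59.6 to 62.4) after light damage. Drosha had 59.4% (52.5 to 66.1) and 67.5% (64.9 to 70.1). Tnrc6a had 52.6% (49.1 to 56.0) and 37.8% (36.6 to 39.1), and Ago1 52.0% (42.8 to 61.1) and 40.5% (37.2 to 43.8). Tnrc6b had 61.3% (59.8 to 62.8) and 57.4% (56.8 to 58.0). The intervals of the 2 libraries did not overlap for Ago3, Tnrc6a and Tnrc6b, and overlapped for the other members. In cytoplasm-rich rods the shares ran from 1.87% for Ago1 to 15.7% for Ago3 in control, with Tnrc6b at 14.2%. After light damage they ran from 1.06% for Ago4 to 15.4% for Ago3.

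**Figure D4:**
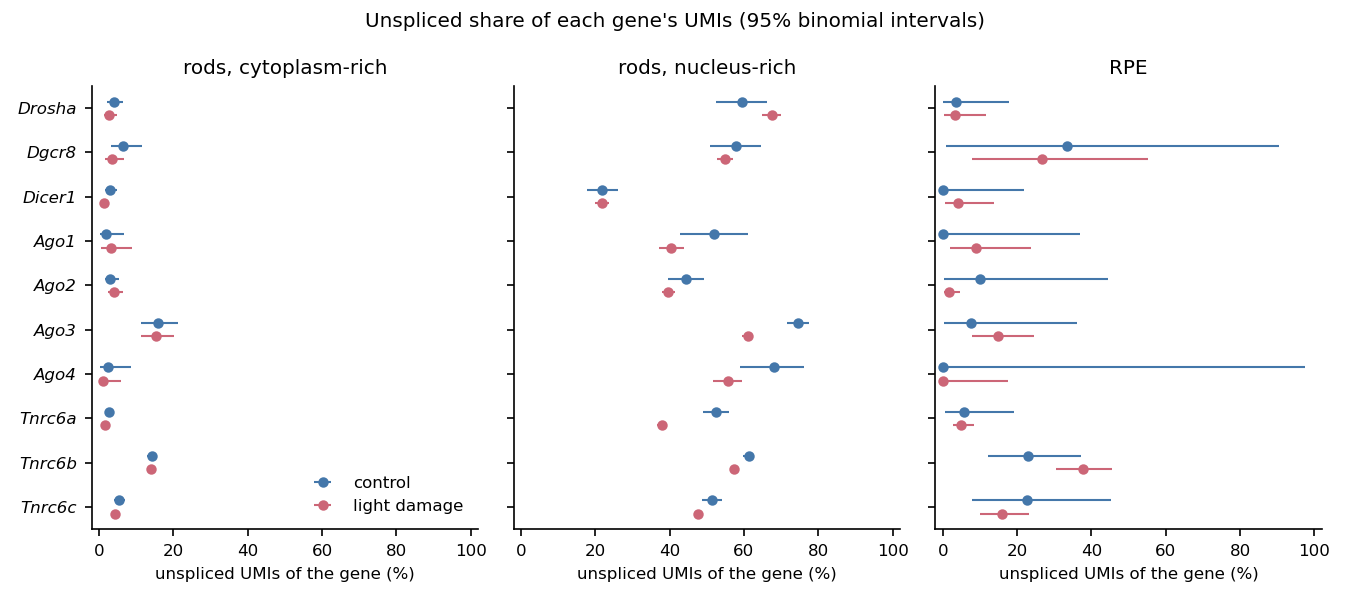
Unspliced UMIs of each gene as a percent of all its UMIs (points) with exact 95% binomial intervals (lines) in cytoplasm-rich rods, nucleus-rich rods and RPE, control in blue and light damage in red. Dicer1 stays at 21.7% in nucleus-rich rods of both libraries, and the other genes lie between 37.8% and 74.6%.

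The level of Ago2, per spliced and ambiguous UMIs, was set in order across classes. In the control library it ran from RPE (13.8 CPM) through Müller glia (29.4), cytoplasm-rich rods (48.9) and the few bipolar and amacrine cells (108, 35.0 to 252) to nucleus-rich rods (154, 135 to 175), and the intervals of neighbours overlapped, though those of RPE and cytoplasm-rich rods did not. In the light damage library it ran from cytoplasm-rich rods (67.2) and RPE (76.5) through Müller glia (129), cones (140, 112 to 172), microglia (154, 116 to 201) and nucleus-rich rods (181, 173 to 189) to bipolar and amacrine cells (199, 137 to 279). There the intervals of RPE and Müller glia did not overlap, and those of all other neighbours did. The classes differed in the unspliced share of all their UMIs, which these levels leave out. After light damage that share was 5.63% in RPE, 5.84% in cytoplasm-rich rods, 50.4% in Müller glia and 52.7% in nucleus-rich rods. With all UMIs as the total the light damage order differs, and the point value of Müller glia falls below that of RPE. The part of this share in the order was not tested. Free RNA held 45.3 and 50.9 CPM of Ago2, more than control RPE droplets did. Microglia of the light damage library, the resident immune cells, also held Tnrc6a at 152 CPM (114 to 198), Tnrc6b at 129 CPM (94.5 to 172) and Dicer1 at 73.0 CPM (47.7 to 107), with Ago4 at 1 UMI. Their Tnrc6b level was well under that of light damage cytoplasm-rich rods (417), and RPE droplets were lower still (44.5).

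**Figure D5:**
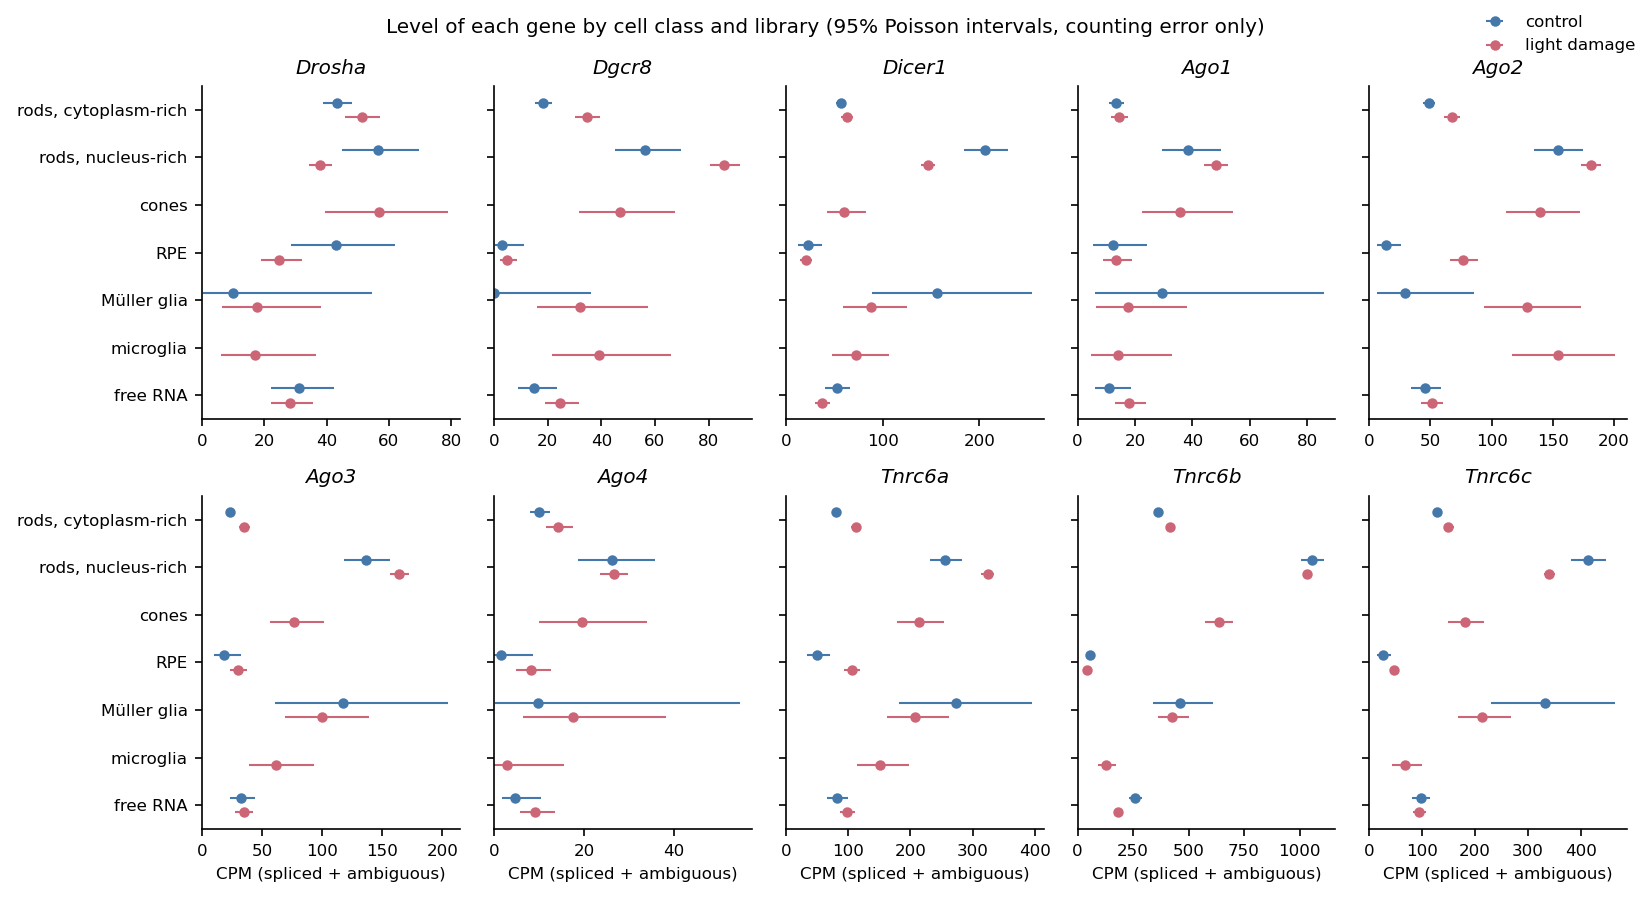
CPM of each gene (horizontal axis, from 0, its own scale in each panel) by cell class and in free RNA, control in blue and light damage in red, with exact 95% Poisson intervals. Control cones and microglia are not drawn, having 2 and 5 droplets. Ago2 in RPE moves from 13.8 to 76.5 CPM, and Tnrc6b is lowest in RPE in both libraries.

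Over the 13 class and library groups with at least 100000 UMIs, the genes of 9855 whose log2(CPM + 1) ran most like Ago2 were Itpkc (Pearson r = 0.95), Grpel2 (0.94), Gpkow (0.94), Nemf (0.94) and Prpf4 (0.94). Among the members Dgcr8 came nearest (0.83) and Drosha farthest (0.20). The groups share 2 libraries and differ in depth, so these values are a description.

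The wider pathway was read from 86 genes that the files hold, chosen by their known role. In cytoplasm-rich rods 0 of 69 tested genes passed a 2-fold difference after light damage, with a median of 0.25 against 0.16 for all genes. In nucleus-rich rods 4 of 72 were higher and 0 lower, a share below the 9.7% of all genes that were higher. These were Pabpc4, a poly(A)-binding protein (82.6 and 271 CPM, 1.71, 1.46 to 1.98), Mir22hg, the host of miR-22 (9.83 and 22.9 CPM, 1.22, 0.47 to 2.08), Piwil2 (0 and 55 UMIs, with a lower limit of 1.00) and Lin28a (1 and 29 UMIs, 2.01, -0.58 to 7.36). Piwil2 and Lin28a are known from the germ line and early development, and all of these but Pabpc4 are named after their values were seen. Deadenylation, the step that GW182 proteins feed into, showed Cnot3 at 43.0 and 81.2 CPM (0.92, 0.72 to 1.12) in cytoplasm-rich and 155 and 278 CPM (0.85, 0.66 to 1.04) in nucleus-rich rods. Its partner Cnot6l gave 0.70 (0.54 to 0.87) and 0.79 (0.61 to 0.97). Of nuclear export, Xpo1 was lower in both groups (-0.33, -0.50 to -0.15, and -0.76, -0.98 to -0.53). The 3 export genes tested, Xpo5, Ran and Xpo1, had medians of -0.07 and -0.25, and 0 of them passed a 2-fold difference.

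Between nucleus-rich and cytoplasm-rich rods, 29 of 70 genes of the wider list in control and 25 of 72 after light damage were at least 2-fold higher and 0 lower, no more than the 41.7% and 45.1% of all genes. The host transcripts of microRNAs had the highest median of these lists, 3.33 over 4 genes in control and 3.35 over 4 genes after light damage. Mir124a-1hg stood at 69.9 CPM in control cytoplasm-rich and 4034 CPM in control nucleus-rich rods (57.7-fold, log2 5.85, 5.72 to 5.98), and at 87.0 and 3662 CPM after light damage (5.40, 5.28 to 5.52). Mir17hg had 4 and 24 UMIs in control and 6 and 266 UMIs after light damage (4.72, 3.58 to 6.18). Between the libraries Mir124-2hg was lower after light damage, with 756 and 592 CPM in cytoplasm-rich rods (-0.35, -0.41 to -0.30) and 2477 and 1406 CPM in nucleus-rich rods (-0.82, -0.87 to -0.76). Mir124a-1hg gave -0.14 (-0.18 to -0.10) in nucleus-rich rods, closer to 0. The dicing and loading list did not rise with the members. Its median was -0.02 in control and -0.33 after light damage, with 0 of 8 genes at least 2-fold higher in each. Its chaperone Hspa8 was lower in nucleus-rich rods (-0.88 in control and -0.68 after light damage).

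In RPE droplets 8 of 69 tested genes of the wider list were at least 2-fold higher, a share below the 14.3% of all genes. The 1 lower gene was Cnot9 (16 and 17 UMIs, -1.76, -2.83 to -0.67), named after its value was seen. The median over the list was 0.30, against 0.07 over all genes. Higher genes were Fxr2, of the FMRP family (44.5 and 97.1 CPM, 1.13, 0.56 to 1.74), and Cnot1, the scaffold of the CCR4-NOT deadenylase (13.8 and 41.9 CPM, 1.60, 0.62 to 2.77), beside Mir124a-1hg (2.27). In Müller glia 11 of 45 were higher, near the 25.5% of all genes, led by Pabpc1, the main cytoplasmic poly(A)-binding protein (12 and 248 UMIs, 2.63, 1.80 to 3.60). The 1 lower gene there was Pan3, a deadenylase subunit, also named after its value was seen.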

How the data were processed

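Retinae were dissociated with papain and collagenase, cleared of dead cells and run on 10x 3′ v3.1 chemistry. The authors counted forward-strand reads with alevin-fry and deposited whole-number counts of UMIs per barcode and gene in spliced, unspliced and ambiguous blocks, without filtering or normalization. The submitters' processing notes name mm10, Cell Ranger 7.0.1, Salmon 1.10.1 and alevin 0.8.1. Ensembl IDs were named from GENCODE vM21 (32235 of 32285).

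Droplets were kept above the inflection of the barcode rank curve (1464 control and 1614 light damage UMIs) with under 10% mitochondrial UMIs, and the top 0.8% per 1000 droplets by doublet score were removed (114 and 276), since the automatic limit called 1 and 0. A droplet was named for a class with at least 10 marker UMIs from 3 markers and 0.3% of its UMIs. Rods needed 1% rod marker UMIs, and droplets of another class with 4% or more (146 and 39, of which 110 and 24 otherwise cones) were left out. These limits, and the 10 droplets a comparison needed, were set after the marker counts had been seen. Clusters are from the Leiden method at resolution 1 on 2000 variable genes of both libraries together and are named by their leading genes. The planned comparisons of cones and microglia were not made, having too few control droplets. Barcodes with fewer than 50 UMIs gave the profile of free RNA.

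UMIs were summed per class and library. Summed depth ran from 102178 spliced and ambiguous UMIs (control Müller glia) to 10997676 (light damage nucleus-rich rods), which sets the precision. Log2 ratios carry exact conditional binomial intervals, levels Poisson and shares Clopper-Pearson intervals, all at 95%. A gene reaching 20 UMIs in the sum of both groups was counted as higher or lower at a log2 ratio past 1 or -1. All 10 members were named. Of the wider list, the 3 largest rises and falls among genes of at least 100 UMIs could be named, and any other gene was named after its values were seen. Members and lists were chosen with earlier results of these data known. The ratio intervals and fold calls were tested on simulated Poisson counts of known ratio, without variation between libraries. Droplet filtering, naming and the free RNA step were not tested in this way. Python 3.11.15, scanpy 1.11.5 and scipy 1.17.1 were used. Alternatives in filtering, free RNA, denominator, counted UMIs and naming are given in the closing section.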

Additional observations from a re-analysis of the deposited data

Results flagged for a closer look

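Drosha and Tnrc6c stood out because their difference between light damage and control had opposite signs in the 2 groups of rods, with both intervals past 0. Drosha gave a log2 ratio of 0.24 in cytoplasm-rich and -0.58 in nucleus-rich rods, and Tnrc6c 0.22 and -0.28. The difference between the groups was not tested, since each condition is 1 library. With spliced, ambiguous and unspliced UMIs summed, Drosha in nucleus-rich rods was at -0.06 (-0.28 to 0.15), and with all UMIs as the total Tnrc6c there was at -0.09 (-0.21 to 0.03). Less the median gene the cytoplasm-rich values were 0.08 and 0.06.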

How the results depend on the processing

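The 10 members' summed log2 ratio was 0.29 and -0.01 (light damage to control in cytoplasm-rich and nucleus-rich rods), 1.61 and 1.32 (nucleus-rich to cytoplasm-rich rods in control and light damage), 0.59 in RPE and -0.19 in Müller glia. Values outside these intervals are given next, and the cause was not tested. With all UMIs as the total the ratio was 0.19 in nucleus-rich rods, 0.42 in control and 0.33 after light damage. Less the median gene it was 0.12 in cytoplasm-rich rods, 0.86 and 0.46. Nucleus-rich to cytoplasm-rich ratios were 1.46 and 1.16 without ribosomal and mitochondrial genes in the total, 1.51 and 1.25 for all 3 kinds of UMI, 1.55 and 1.26 for spliced UMIs alone, and 1.55 and 1.28 without doublet removal. With rods split at 25% they were 1.44 and 1.28, and the nucleus-rich ratio was 0.11. A minimum of 1000 UMIs gave 1.36 after light damage. Naming by clusters gave 0.17 in Müller glia. Chosen after seeing the data, droplets of 2000 to 6000 UMIs gave 0.10 in nucleus-rich rods, and steps of 10 points from 30% to 70% unspliced gave 0.48, 0.18, 0.18 and -0.085. Of 688 recomputed member values 597 stayed within the interval, 0 values past a 2-fold difference changed sign and 30 others did, and 215 of 253 past a 2-fold difference remained past it. Members at least 2-fold higher in nucleus-rich rods numbered 9 in control and 8 after light damage, but 1 and 1 with all UMIs as the total, 2 and 1 less the median gene, and 8 and 6 for spliced UMIs alone, with 8 or 9 under the other alternatives. In rods, spliced UMIs alone put 1 member past a 2-fold difference between the libraries in each group. In RPE the number of higher members, 3 of 9, was 2 of 9 less the median gene and with a minimum of 1000 UMIs. It was 2 of 8 with a mitochondrial limit of 5%, 2 of 7 for spliced UMIs alone and 4 of 9 without doublet removal. At 2000 to 6000 UMIs it was 2 of 5, here Ago2 and Tnrc6c, and in the shared cluster (chosen after seeing the data) 1 of 8. Members under 20 UMIs in a setting were not counted. Naming by clusters added 1 lower, Tnrc6b at -1.07. Without a limit on rod markers 1 member was lower in Müller glia. Levels by class moved past their interval in 13 cases and shares of droplets in 11. Ago2 stayed between 1.90 and 2.59 in RPE and between 1.74 and 2.69 in Müller glia. No paired analysis was possible because each condition has 1 library, and comparisons of Müller glia at matched depth or within the shared cluster and of cones and microglia were not run. Counting error limits every class outside rods.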
